A study of Mus musculus with 6 samples.

Results

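The genes described here are 10 enzymes and receptors of the prostaglandin pathway, among 17909 genes listed in 6 RNA-seq libraries of primary mouse hepatic stellate cells. They are the cyclooxygenases Ptgs1 and Ptgs2, the terminal synthases Ptges and Ptgis, the prostaglandin E2 receptors Ptger1 to Ptger4, the prostacyclin receptor Ptgir and the prostaglandin F receptor Ptgfr. They were chosen by name with the counts and FPKM values (fragments scaled by transcript length and library depth) of these same libraries known, so the difference between the genotypes is given for them as a description, with no test.

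The HAS2_Tg group (replicates 4, 5 and 6) came from mice that carry human HAS2, a hyaluronan synthase, behind the alpha smooth muscle actin promoter. The Has2_KO group (replicates 7, 8 and 9) came from Has2 f/f mice in which Lrat-Cre deletes Has2 in stellate cells. All mice were male, of the C57BL/6 strain and 24 weeks old, and no wild-type cells were analysed here. The cells were depleted of Cd11b-positive macrophages, attached for 4 h, and were kept for 14 h more in medium with 10% serum before collection at day 1. The labels do not say whether each library is a separate animal, so the spread below is that between libraries, which may be technical. The adjusted p values below rest on that same spread and may not measure variation between animals.

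Prostaglandins are local lipid signals. A phospholipase frees arachidonic acid, a cyclooxygenase turns it into prostaglandin H2, and terminal synthases convert that into prostaglandin E2, prostacyclin and other prostanoids, which act on G protein-coupled receptors of the producing or neighbouring cells. In the liver, Kupffer cells and sinusoidal endothelial cells are known prostanoid producers, and stellate cells respond to them, for example with changes in contraction.

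Each library held 11961726 to 12423220 expected counts in all, and all 10 genes were listed in all 6 libraries. Has2 had 847, 889 and 835 counts in HAS2_Tg libraries and 1 count in each Has2_KO library. Of 12 stellate cell markers, 12 were listed in both groups, and their summed level was 2343 to 2430 FPKM in HAS2_Tg and 1262 to 1305 FPKM in Has2_KO. Of these markers 9 rose, while Reln, Ngfr and Hgf did not (log2 fold change -0.01, -0.13 and -0.28). Without Ecm1, the most abundant, the sum was 1191 to 1263 FPKM in HAS2_Tg and 669 to 703 FPKM in Has2_KO. The groups differed in markers of other cells, although Cd11b beads were used to remove macrophages. The 17 macrophage markers summed to 10.5 to 13.6 FPKM in HAS2_Tg and 537 to 585 FPKM in Has2_KO, with 15 and 17 of them listed, and the 14 endothelial markers summed to 3.66 to 4.91 FPKM in HAS2_Tg and 278.2 to 310.0 FPKM in Has2_KO, with 13 and 14 listed. The Kupffer cell genes Clec4f and Timd4 and the endothelial gene Emcn had no count in any HAS2_Tg library. The 9 platelet markers summed to 3.91 to 4.46 FPKM in HAS2_Tg and 29.5 to 33.0 FPKM in Has2_KO (6 and 8 listed). The 11 neutrophil and mast cell markers summed to 0.32 to 0.67 FPKM in HAS2_Tg and 3.81 to 4.54 FPKM in Has2_KO (3 and 4 listed). Hdc was the largest part of that sum in Has2_KO. Without Hdc it was 0.32 to 0.53 FPKM in HAS2_Tg and 1.17 to 1.62 FPKM in Has2_KO. S100a9, Ly6g, Retnlg, Mcpt4, Tpsb2 and Cma1 were in no library. The 8 mesothelial markers summed to 0.14 to 0.25 FPKM in HAS2_Tg and 1.58 to 1.96 FPKM in Has2_KO (5 and 6 listed). Wt1 was the largest part of the mesothelial sum in Has2_KO. Pf4 carried the platelet sum, which without it was 2.20 to 2.64 FPKM in HAS2_Tg and 1.51 to 2.01 FPKM in Has2_KO. The 14 hepatocyte markers summed to 261.3 to 295.8 FPKM in HAS2_Tg and 197.4 to 214.8 FPKM in Has2_KO, nearly all from Ass1, the only one of 8 tested that rose. The other hepatocyte markers summed to 10.2 to 10.9 FPKM in HAS2_Tg and 33.8 to 45.3 FPKM in Has2_KO, and 6 of them fell. The 10 smooth muscle markers were at 914.9 to 998.5 FPKM in HAS2_Tg and 352.6 to 378.5 FPKM in Has2_KO. The part of these cells in the results below was not tested. In bulk RNA, fewer cells of a type and less RNA per cell cannot be told apart. HAS2_Tg replicate 4 stood apart. By chi-square per degree of freedom, its counts differed from those of replicates 5 and 6 by 22.8 and 31.6. Between replicates 5 and 6 the value was 6.24. In replicate 4, 1 unnamed gene took 1.59% of the counts, against at most 0.156% in the other libraries. That gene is included in the chi-square values, so these signs are not separate.

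**Figure D1:**
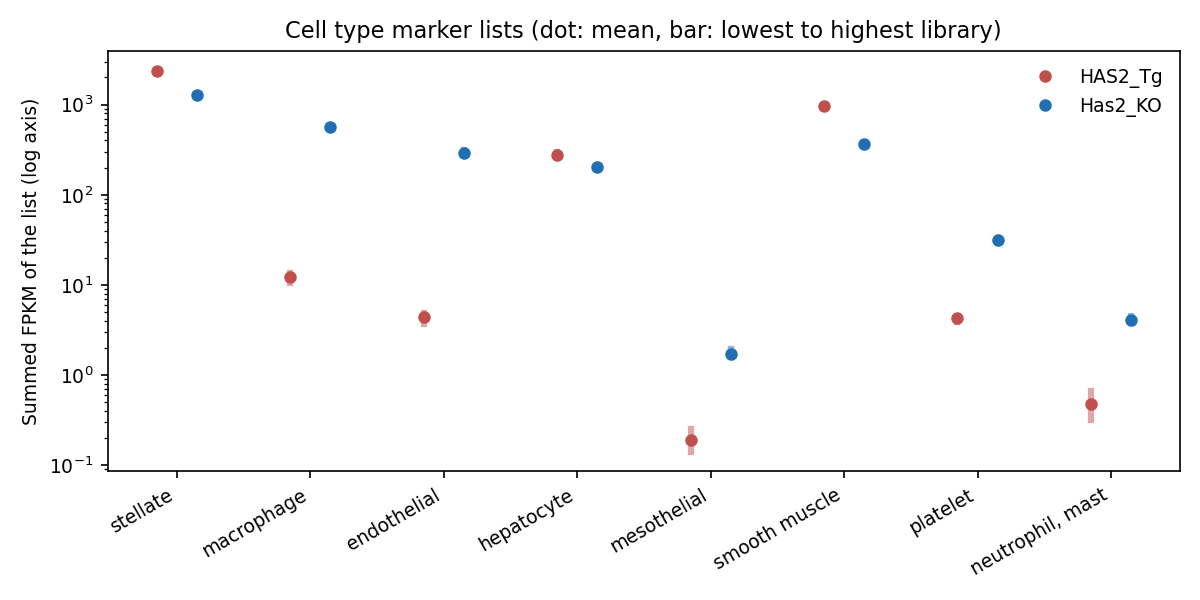
Summed FPKM of 8 cell type marker lists on a log axis, with HAS2_Tg left of Has2_KO in each pair, dots for the mean of 3 libraries and bars from the lowest to the highest library. The macrophage list averages 12.3 FPKM in HAS2_Tg and 563.4 FPKM in Has2_KO, and the endothelial list 4.46 FPKM in HAS2_Tg and 292.4 FPKM in Has2_KO.

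All 4 enzymes were lower in HAS2_Tg than in Has2_KO, and the receptors split, with Ptger3 much higher and Ptgir and Ptger4 lower. The low-count filter kept 9 of the 10 genes, all but Ptgfr. In the edgeR fit across all genes, 2 of these 9 passed an adjusted p of 0.05 as higher in HAS2_Tg and 6 as lower. The background was 40.7% of 13014 tested genes in either direction, 20.2% higher and 20.5% lower in HAS2_Tg. The groups did not overlap in CPM, the counts normalised to library size, for 8 of the 9 genes, 2 higher and 6 lower in HAS2_Tg, against a background of 52.2% of tested genes, 25.2% higher and 26.9% lower. Nothing is read from these counts, because the genes were chosen on the same contrast. The median log2 fold change of the 9 genes, HAS2_Tg minus Has2_KO, was -1.26, beside -0.01 over all tested genes.

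**Figure D2:**
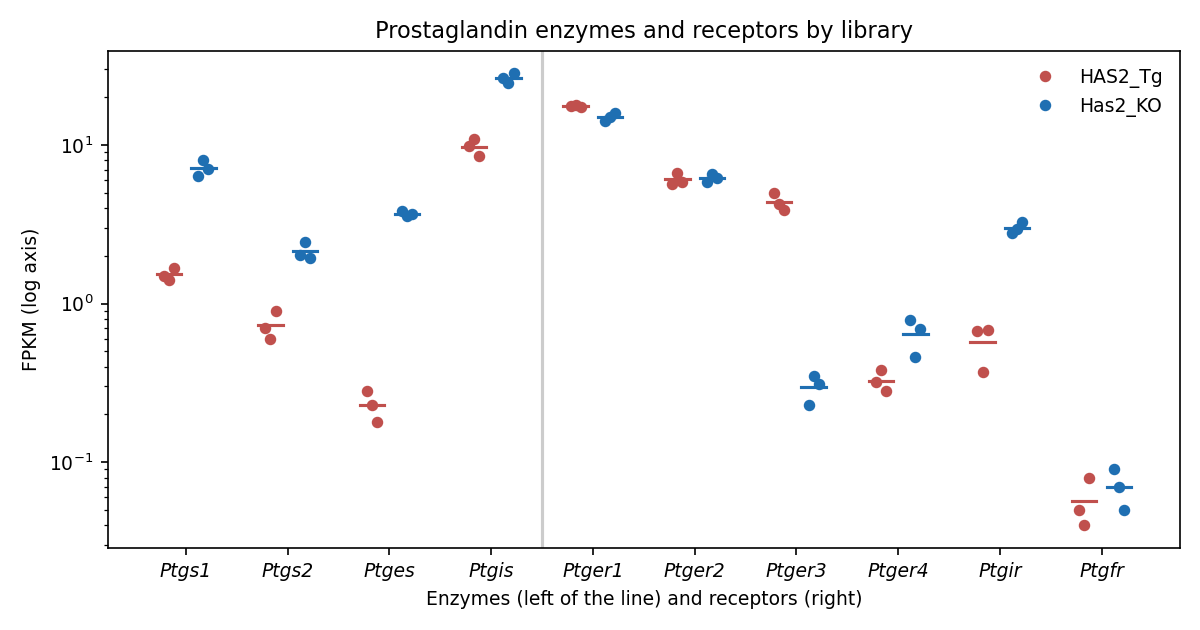
FPKM of the 10 genes in each library on a log axis, with HAS2_Tg left of Has2_KO, one dot per library and a line at the group mean. The 4 enzymes lie lower in HAS2_Tg, Ptger3 lies higher, and the dots of Ptger2 and Ptgfr overlap between the groups.

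Gene positions below are those of GRCm38. Both cyclooxygenases, which carry out the committed step from arachidonic acid, were lower in HAS2_Tg. Ptgs1, the constitutive enzyme (chr2:36230426-36252272, plus strand), had 52, 48 and 59 counts in HAS2_Tg libraries and 226.93, 288 and 252 counts in Has2_KO libraries, or 1.53 ± 0.14 FPKM in HAS2_Tg and 7.18 ± 0.84 FPKM in Has2_KO (SD, n = 3). The highest HAS2_Tg library was far under the lowest Has2_KO library, and the log2 fold change was -2.06 (SE 0.14). Ptgs2, the form that inflammatory and mitogenic signals induce in many cells (chr1:150100031-150108227, plus strand), had 0.70, 0.60 and 0.90 FPKM in HAS2_Tg libraries and 2.03, 2.43 and 1.95 FPKM in Has2_KO libraries, from 30 to 46 counts in HAS2_Tg and 101 to 126 counts in Has2_KO. Its groups did not overlap either, and its log2 fold change was -1.37 (SE 0.18). Ptgs1 had the higher FPKM of the pair in every library. Ptgs2 made up 32.2% ± 2.47 of the summed cyclooxygenase FPKM in HAS2_Tg and 22.9% ± 1.27 in Has2_KO (SD, n = 3). The sum itself was 2.26 ± 0.29 FPKM in HAS2_Tg and 9.32 ± 1.07 FPKM in Has2_KO (SD, n = 3).

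Of the 4 enzymes Ptges differed most between the groups. Ptges, the microsomal prostaglandin E synthase that is often induced together with Ptgs2 (chr2:30889471-30929863, minus strand), had 12.18, 10 and 8 counts in HAS2_Tg libraries and 174.13, 162.96 and 166 counts in Has2_KO libraries. That is 0.23 ± 0.05 FPKM in HAS2_Tg and 3.69 ± 0.14 FPKM in Has2_KO (SD, n = 3), a log2 fold change of -3.84 (SE 0.19), or 14.3-fold higher in Has2_KO. The Has2_KO libraries lay close together, while the HAS2_Tg values rest on few counts. Ptgis, prostacyclin synthase (chr2:167191805-167240604, minus strand), had 9.87, 10.89 and 8.59 FPKM in HAS2_Tg libraries and 26.40, 24.62 and 28.33 FPKM in Has2_KO libraries (log2 fold change -1.26, SE 0.10). It was the most abundant of the 4 enzymes in all 6 libraries. Since Ptges differed more than Ptgis, the ratio of Ptgis to Ptges FPKM was 43.4 ± 7.10 in HAS2_Tg and 7.18 ± 0.51 in Has2_KO (SD, n = 3). The macrophage and endothelial markers were lower in the same HAS2_Tg libraries as the 4 enzymes, and their part was not tested.

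Among the receptors, Ptger3 went against the enzymes. Ptger3, the EP3 receptor, which mainly couples to inhibitory G proteins and lowers cAMP (chr3:157566892-157645888, plus strand), had 125, 106 and 99 counts in HAS2_Tg libraries and 6, 9 and 8 counts in Has2_KO libraries. It stood at 4.97, 4.25 and 3.88 FPKM in HAS2_Tg libraries and 0.23, 0.35 and 0.31 FPKM in Has2_KO libraries. Every HAS2_Tg library was far above every Has2_KO library, and the log2 fold change was 4.03 (SE 0.23), or 16.4-fold. The stellate and smooth muscle marker sums, which share Des, were also higher in HAS2_Tg, and their part was not tested. Reln, Ngfr and Hgf of the stellate list did not rise. Without HAS2_Tg replicate 4, the library that stood apart, the log2 fold change was 3.91.

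The receptors that raise cAMP through stimulatory G proteins did not share the Ptger3 difference. Ptger2, the EP2 receptor (chr14:44988195-45003820, plus strand), had 5.69, 6.66 and 5.84 FPKM in HAS2_Tg libraries and 5.82, 6.54 and 6.20 FPKM in Has2_KO libraries. The groups overlapped, with a log2 fold change of 0.15 (SE 0.10), which turned to -0.03 when libraries were scaled by total counts. Ptger4, the EP4 receptor (chr15:5206661-5244187, minus strand), had 10, 12 and 9 counts in HAS2_Tg libraries and 26, 16 and 23 counts in Has2_KO libraries (log2 fold change -0.85, SE 0.31). Its groups did not overlap, and it was under 1 FPKM in every library. Ptgir, the prostacyclin receptor (chr7:16906490-16910905, plus strand), had 0.67, 0.37 and 0.68 FPKM in HAS2_Tg libraries and 2.80, 2.95 and 3.25 FPKM in Has2_KO libraries (log2 fold change -2.20, SE 0.20). Every HAS2_Tg library was under every Has2_KO library. The prostacyclin synthase and its receptor were thus both lower in HAS2_Tg, by 1.26 and 2.20 on the log2 scale.

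Among Ptger2, Ptger3 and Ptger4 the makeup therefore differed. Ptger3 took 40.6% ± 4.11 of their summed FPKM in HAS2_Tg and 4.14% ± 0.71 in Has2_KO, Ptger2 took 56.4% ± 3.98 in HAS2_Tg and 86.7% ± 2.02 in Has2_KO, and Ptger4 took 3.03% ± 0.30 in HAS2_Tg and 9.13% ± 2.67 in Has2_KO (SD, n = 3). With Ptger1 in the sum, Ptger3 took 15.4% ± 1.74 in HAS2_Tg and 1.34% ± 0.23 in Has2_KO (SD, n = 3), and Ptger2 took 19.9% to 22.9% in HAS2_Tg libraries and 26.9% to 29.2% in Has2_KO libraries. The summed level of Ptger2, Ptger3 and Ptger4 was 10.8 ± 0.67 FPKM in HAS2_Tg and 7.13 ± 0.26 FPKM in Has2_KO (SD, n = 3).

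**Figure D3:**
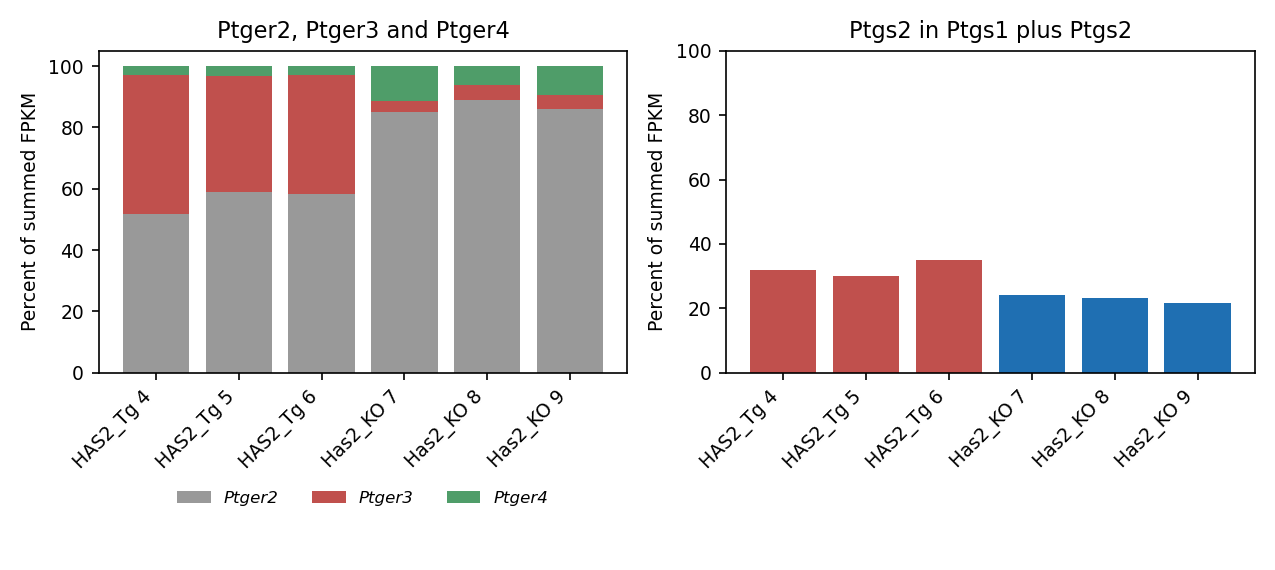
Left, the percent of the summed Ptger2, Ptger3 and Ptger4 FPKM taken by each receptor in each library; right, Ptgs2 as a percent of the summed Ptgs1 and Ptgs2 FPKM, with HAS2_Tg libraries left of Has2_KO libraries in both panels. Ptger3 takes 37.6% to 45.3% in HAS2_Tg libraries and 3.36% to 4.76% in Has2_KO libraries.

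Ptger1 was left out of the first of these sums because its counts are uncertain: the sources used here do not say that the counting used strand, and reads from opposite strands then cannot be told apart. Ptger1, the EP1 receptor, which signals through calcium, had 17.58, 17.81 and 17.31 FPKM in HAS2_Tg libraries and 14.16, 15.02 and 15.82 FPKM in Has2_KO libraries. The groups did not overlap, and the log2 fold change was 0.40 (SE 0.08), or 0.23 with total counts.

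Ptgfr, the prostaglandin F receptor (chr3:151796502-151837630, minus strand), was barely detected. It had 2.92, 2.10 and 4.34 counts in HAS2_Tg libraries and 5.12, 3.68 and 2.61 counts in Has2_KO libraries, none of them whole. Its groups overlapped, and at 0.04 to 0.09 FPKM a difference was not detectable at this depth.

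**Figure D4:**
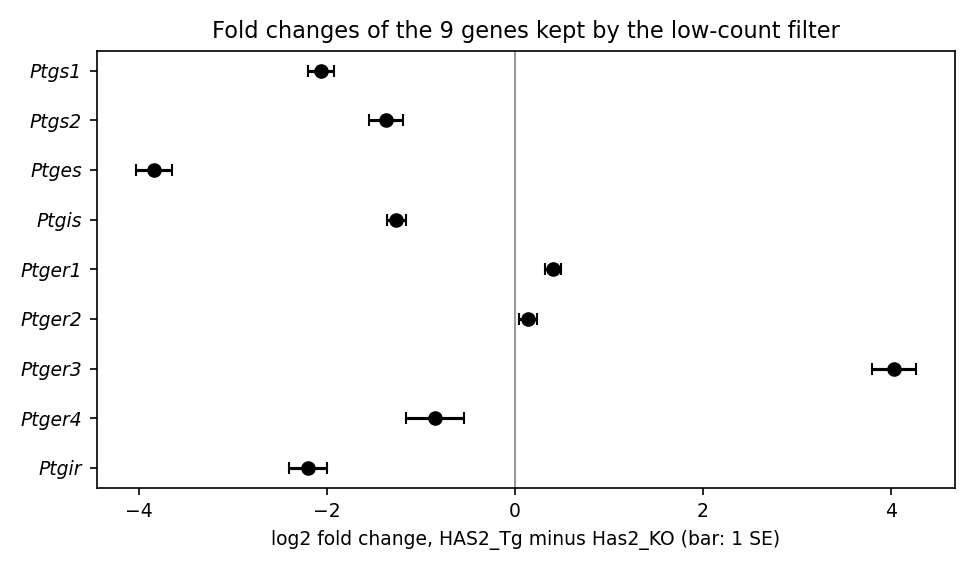
Log2 fold change, HAS2_Tg minus Has2_KO, from the edgeR fit for the 9 genes that the low-count filter kept, with bars of 1 SE. The 4 enzymes lie between -3.84 and -1.26, and Ptger3 is at 4.03.

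Per length, Ptger1 was listed highest in HAS2_Tg, followed by Ptgis, Ptger2, Ptger3 and Ptgs1, and each of these stood apart from the next over the 3 libraries. Below them Ptgs2, Ptgir, Ptger4 and Ptges had library ranges that overlapped from one to the next in that order, and Ptgfr was lowest. In Has2_KO the order was Ptgis, Ptger1, Ptgs1, Ptger2, Ptges, Ptgir, Ptgs2, Ptger4, Ptger3 and Ptgfr, and only the ranges of Ptgs1 and Ptger2 overlapped among neighbours. Ptger3 thus had rank 4 in HAS2_Tg and rank 9 in Has2_KO, and Ptges had rank 9 in HAS2_Tg and rank 5 in Has2_KO.

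Upstream sequence from RefSeq (GRCm38.p6) was matched for 8 of the 10 genes; Ptger1 and Ptgis had no entry. The 250 bases before the RefSeq table's start of Ptger3, Ptges and Ptgs2 are shown because these are the gene with the largest positive difference, the one with the largest negative difference and the inducible cyclooxygenase. Capitals mark matches, on either strand, to the GC box GGGCGG and to the loose C/EBP pattern TTNNGNAA. These matches do not overlap each other in the sequences shown. That start lies inside the gene span given above for Ptges and just upstream of it for Ptger3, so other starts of these genes are not covered. The windows lie at chr3:157566626-157566875 (plus strand), chr2:30903298-30903547 (minus strand) and chr1:150099781-150100030 (plus strand).
Ptger3: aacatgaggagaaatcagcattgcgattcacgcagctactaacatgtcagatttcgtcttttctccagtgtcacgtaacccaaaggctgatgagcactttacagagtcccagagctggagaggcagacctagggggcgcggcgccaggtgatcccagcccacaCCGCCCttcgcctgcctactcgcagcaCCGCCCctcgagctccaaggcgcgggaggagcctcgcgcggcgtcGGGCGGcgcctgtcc
Ptges: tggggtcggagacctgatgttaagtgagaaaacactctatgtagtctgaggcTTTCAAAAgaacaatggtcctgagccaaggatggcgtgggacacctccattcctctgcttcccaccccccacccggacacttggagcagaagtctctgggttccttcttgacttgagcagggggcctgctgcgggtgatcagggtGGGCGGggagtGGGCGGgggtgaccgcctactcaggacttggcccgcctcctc
Ptgs2: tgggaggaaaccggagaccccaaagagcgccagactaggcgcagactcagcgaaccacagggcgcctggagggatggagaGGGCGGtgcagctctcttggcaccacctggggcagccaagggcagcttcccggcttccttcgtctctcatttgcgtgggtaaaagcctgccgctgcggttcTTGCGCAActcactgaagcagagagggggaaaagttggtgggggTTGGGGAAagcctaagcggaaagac

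The Ptger3 window held 3 GC boxes, the Ptges window 2 GC boxes and 1 C/EBP match, and the Ptgs2 window 1 GC box and 2 C/EBP matches. The GC box occurred in 6 of the 8 windows and in 32.7% of 32851 windows of the same length, and the C/EBP pattern in 4 of the 8 and in 36.8%. The TATA box TATAAA, the cAMP response element core TGACG, the E-box CACGTG, the kappaB consensus and the CArG box were in none of the 8 windows, against 12.4%, 17.8%, 6.02%, 3.90% and 1.47% of all windows. Bases past the start were not searched for any of the 8 genes, Ptgs2 included, so an absence covers only these 250 bases. Matches are a description of these letters and not sites, and genes on both sides of the contrast held GC boxes. Ptger3 had the most CpG pairs of the 8, with 21, beside a median of 6 over all windows.

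Other genes of prostanoid synthesis and signalling were taken from 7 lists of 111 genes. The lists were chosen with earlier results of these data known. Their counts and shares here and below therefore describe the lists, and no excess over the background is read from them. Of 79 tested, 22 rose and 21 fell in HAS2_Tg relative to Has2_KO (edgeR quasi-likelihood test, Benjamini-Hochberg adjusted p under 0.05), or 54.4%, beside 40.7% of all tested genes. Scaled by total counts the split was 14 and 31. Over all genes it was 2625 and 2673, and 1477 and 4827 with total counts.

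The remaining terminal synthases fell or did not pass. Of 7 tested, 4 fell and none rose, so 57.1% passed, beside 40.7% of all tested genes. Tbxas1, thromboxane synthase, had 4, 3 and 3 counts in HAS2_Tg libraries and 56, 63 and 62 counts in Has2_KO libraries (log2 fold change -3.92, SE 0.29, edgeR adjusted p = 5.07e-08). Hpgds, the hematopoietic prostaglandin D synthase, was 0.43 ± 0.05 FPKM in HAS2_Tg and 2.56 ± 0.11 FPKM in Has2_KO (SD, n = 3), with a log2 difference of -2.38. Akr1b8, an aldo-keto reductase, was 17.6 ± 1.09 FPKM in HAS2_Tg and 87.2 ± 5.60 FPKM in Has2_KO (SD, n = 3), with a log2 difference of -2.14, with reads that close relatives can share. Ptges3, a cytosolic synthase and Hsp90 co-chaperone, fell by 0.24 on the log2 scale, and Ptges2 had -0.22 and did not pass; both were named after their values were seen. Tbxas1 and Hpgds are known in macrophages, whose summed markers were lower in the same libraries, and their part was not tested.

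Transport and breakdown genes included large falls. Of 9 tested, 2 rose and 4 fell, so 66.7% passed, beside 40.7% of all tested genes. Hpgd, the dehydrogenase that inactivates prostaglandins, had 2, 0 and 2 counts in HAS2_Tg libraries and 57, 53 and 63 counts in Has2_KO libraries (log2 fold change -5.11, SE 0.41, edgeR adjusted p = 1.12e-07). Slco2a1, the uptake transporter that precedes it, had 0.25, 0.16 and 0.30 FPKM in HAS2_Tg libraries and 5.04, 6.28 and 4.46 FPKM in Has2_KO libraries (-4.28, SE 0.22). Abcc4, an exporter of prostaglandin E2, was 2.64 ± 0.45 FPKM in HAS2_Tg and 8.44 ± 0.30 FPKM in Has2_KO (SD, n = 3), with a log2 difference of -1.48 (SE 0.11). The endothelial markers were lower in the same libraries as Hpgd, Slco2a1 and Abcc4, and their part was not tested. Ptgr1, a reductase of prostaglandins and leukotrienes named after its values were seen, rose (0.76, SE 0.13).

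Of the other prostanoid receptors Tbxa2r rose. The thromboxane receptor gene had 4.38, 3.39 and 3.04 FPKM in HAS2_Tg libraries and 0.40, 0.67 and 0.58 FPKM in Has2_KO libraries (log2 fold change 2.89, SE 0.24, edgeR adjusted p = 1.99e-07). It is known for contraction of smooth muscle, and the groups did not overlap. Ptgdr2 did not pass (-0.04, SE 0.22), and Ptgdr was not tested, at under 0.11 FPKM in every library.

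Among arachidonate release genes, 3 of 11 tested rose and 1 fell, so 36.4% passed, beside 40.7% of all tested genes. Mgll, the monoacylglycerol lipase, had 83.51, 82.22 and 73.67 FPKM in HAS2_Tg libraries and 21.24, 21.26 and 23.33 FPKM in Has2_KO libraries (log2 fold change 2.03, SE 0.08, edgeR adjusted p = 5.21e-11). Plaat3, a phospholipase, had 0.55 (SE 0.13) and Dagla, a diacylglycerol lipase, 0.31 (SE 0.09). With total counts Dagla no longer passed (edgeR adjusted p = 0.213), and its adjusted p ranged from 0.00226 to 0.331 over all alternatives. Pla2g4a, the cytosolic phospholipase A2 and named after its values were seen, was 6.13 ± 0.40 FPKM in HAS2_Tg and 5.95 ± 0.28 FPKM in Has2_KO (SD, n = 3) and did not pass.

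**Figure D5:**
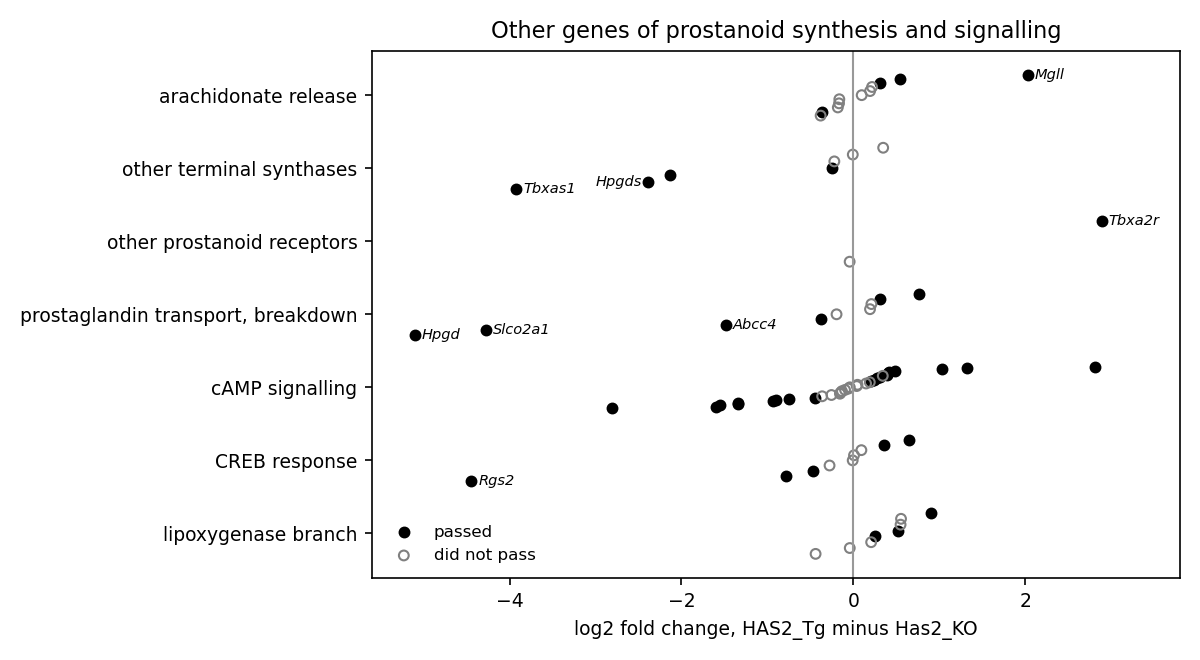
Log2 fold change, HAS2_Tg minus Has2_KO, of the 79 tested genes of 7 lists, with filled dots for genes that passed an edgeR adjusted p of 0.05 and open dots for the others; 8 are named. Hpgd at -5.11, Rgs2 at -4.44 and Slco2a1 at -4.28 lie farthest left, and Tbxa2r at 2.89 farthest right.

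Downstream, genes of cAMP signalling and of G protein subunits went both ways. The list includes Gnaq and Gna11, whose G proteins act mainly through calcium, and both rose. Of 33 tested, 11 rose and 9 fell, so 60.6% passed, beside 40.7% of all tested genes. Adcy5, an adenylyl cyclase, was 17.2 ± 0.37 FPKM in HAS2_Tg and 7.72 ± 0.40 FPKM in Has2_KO (SD, n = 3), with a log2 difference of 1.33 (SE 0.08), and Pde8b, a cAMP phosphodiesterase, had 1.03 (SE 0.08). Prkar2b, a regulatory subunit of protein kinase A, fell by 1.34 (SE 0.11). Adcy7 (-2.81) and Adcy1 (2.81), named after their values were seen, changed most among the 8 cyclases tested, and both were under 2 FPKM in every library. The CREB list held genes known to respond to cAMP and CREB, and the CREB coactivator gene Crtc2. Of its 9 tested genes 2 rose and 3 fell, so 55.6% passed, beside 40.7% of all tested genes. Those that rose, Fosb (0.65) and Per1 (0.36), were named after their values were seen. Rgs2, a regulator of G protein signalling, had 3, 3 and 2 counts in HAS2_Tg libraries and 65, 72 and 73 counts in Has2_KO libraries (-4.44, SE 0.30, edgeR adjusted p = 1.58e-08). Crem (-0.78, SE 0.13) and the kinase gene Sik1 (-0.47, SE 0.10) also fell. The macrophage and endothelial markers were lower in the same libraries as Rgs2 and Adcy7, and their part was not tested.

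In the lipoxygenase and epoxide list, 3 of 8 tested genes rose and none fell, or 37.5% beside 40.7% of all tested genes. The tested lipoxygenase genes Alox12 (-0.04) and Alox8 (-0.44), named after their values were seen, did not pass. Ephx1, microsomal epoxide hydrolase, was 241.8 ± 27.4 FPKM in HAS2_Tg and 146.3 ± 10.2 FPKM in Has2_KO (SD, n = 3), with a log2 difference of 0.90 (SE 0.09). Ggt5 had 0.52 (SE 0.14) and Lta4h, leukotriene A4 hydrolase, 0.25 (SE 0.08). With total counts Lta4h no longer passed (edgeR adjusted p = 0.444), and its adjusted p ranged from 0.00969 to 0.449. Ggt5 did not pass in the limma fits of FPKM, and its adjusted p ranged from 0.00108 to 0.116.

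The genes whose profile over the 6 libraries lay nearest to Ptger3, by root mean square difference of centred log2 CPM, were the adrenergic receptor gene Adra1d (0.15), Igfbp3 (0.19) and Myh11 (0.21). Those nearest to Ptges were Lgals3 (0.05), Pf4 (0.06) and Tbc1d30 (0.09). Lgals3, galectin 3, is abundant in macrophages, and Pf4 is on the platelet marker list. Without Pf4 that list summed to 2.20 to 2.64 FPKM in HAS2_Tg and 1.51 to 2.01 FPKM in Has2_KO. Each likeness is over the 6 libraries of 2 groups.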

How the data were processed

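RNA was sequenced in 6 libraries, 3 per genotype. Per the submitters' processing notes, RSEM and mm10 were used; versions are not given in the sources used here. Expected counts, which need not be whole, and FPKM values to 2 decimals were deposited by the authors, 1 file per library, per the file headers. Files list no zeros, so a gene absent from a library was set to 0. Identifiers were named through RefSeq tables of GRCm38 (17857 of 17909), the assembly also called mm10.

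The expected counts were rounded. After filterByExpr and TMM scaling, all genes were fitted together in edgeR with a robust two-sided quasi-likelihood test of HAS2_Tg minus Has2_KO and a Benjamini-Hochberg threshold of 0.05. The SE was taken as the absolute log2 fold change divided by the root of F. CPM values are TMM-normalised. Within groups, libraries differed by more than counting noise (chi-square per degree of freedom 2.31 to 31.6). A further item that bears on Ptger1 is not reported here. The script was tested on simulated counts.

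The members and lists were chosen with earlier results of these data known. Named genes are all 10 members, the up to 3 called genes of each list with the smallest adjusted p, and the 3 nearest profiles of the genes with the largest positive and negative fold change (prior count 2). Also run were scaling with DESeq2's median ratios, by library totals or with upper quartiles; DESeq2's own Wald test; fits that kept every gene, or only genes of at least 1 CPM throughout one group with an average of 5; limma on FPKM (pseudocounts 1 and 0.1, with an FPKM floor of 1 in 3 libraries, and with none); omission of single libraries; and a threshold of 0.01. The software was edgeR 4.0.16 and DESeq2 1.42.0 with limma 3.58.1 under R 4.3.3, and pandas 2.3.3 under Python 3.11.15.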

Additional observations from a re-analysis of the deposited data

How the results depend on the processing

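No paired analysis was possible because the groups share no replicate numbers. Scaling decided the split of calls: total counts moved the median gene by -0.17 on the log2 scale. Genes called higher and lower in HAS2_Tg numbered 1477 and 4827 with total counts, 1399 and 4198 with limma on log2(FPKM + 1), 1376 and 4138 with log2(FPKM + 0.1), and 1366 and 4596 with limma and no filter. Pathway genes called higher numbered 14, 12, 12 and 11 under the same settings, and 33 were called lower with limma and no filter. With each library left out, calls ranged from 2034 to 2727 higher and 2144 to 2897 lower over all genes, and from 16 to 24 and 19 to 23 over the pathway genes. Apart from Ptger2, the tested members kept their direction in every alternative run that kept the gene, with Ptges at -4.01 and Ptgir at -2.33 without HAS2_Tg replicate 4. Of 131 comparisons of members with an alternative, 21 moved by at least the SD of log2 CPM combined over both groups. With limma on log2(FPKM + 1), Ptger3 was at 2.05 and Ptges at -1.93, since the pseudocount shrinks low genes. Of 280 comparisons of the named pathway genes with an alternative, 17 ended the call, all of Dagla, Lta4h or Ggt5, and the cause was not tested. Low counts limit Ptgfr, Ptger4, the HAS2_Tg values of Ptges and the Has2_KO values of Ptger3. In a comparison chosen after seeing the data, leaving the most abundant marker out of each list turned the log2 ratio of the hepatocyte sums to -1.83 and of the platelet sums to 0.49, and turned no other of the 8 lists.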
